A study of Mus musculus with 54 samples.

Results

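The clustered protocadherin genes were followed here across mouse embryonic stem cell lines that differ in their EZH2. They are 57 protein-coding genes among the 55401 genes counted by RNA sequencing, and all 57 have a row of counts. They were taken by symbol and gene type from GENCODE M21 (GRCm38), as protein-coding genes whose names begin with Pcdha, Pcdhb or Pcdhg, with no use of measured values. On chromosome 18, the Pcdha cluster held 14 of them (36930184 to 37187661), the Pcdhb cluster 22 (37264938 to 37524479) and the Pcdhg cluster 21 (37661793 to 37841873). A Pcdha gene whose symbol the annotation gives to 2 identifiers, ENSMUSG00000007440.10, is called Pcdha10 here, after the nearest RefSeq gene.

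EZH2 is the enzyme of PRC2, the Polycomb complex that methylates histone H3, and variants of it cause the overgrowth condition Weaver syndrome. The 8 lines analysed were a line labelled parental, a heterozygous derivative (het) and lines that express added EZH2. The added EZH2 was EZH2-WT (WT) or EZH2 with the change A677T, R679C, K634E, K563E or A733T. The sample descriptions mark the parental line flfl (fl/fl) without naming the gene. The series' design text describes the lines that express EZH2 as Ezh2 fl/Δ heterozygotes, so WT and every variant line share the loss of 1 allele with het. The first 4 variants are treated here as Weaver variants and A733T as the growth restriction-associated variant, an assignment from general knowledge that the labels do not make. Each line was sequenced undifferentiated (mESC) and after the inhibitors and cytokine of its medium (2i and LIF) were withdrawn and all-trans retinoic acid was given (ATRA). Each of the 16 groups holds 3 libraries, which makes 48. The labels do not state the promoter of the added EZH2, the number of clones per line, or the dose and length of the retinoic acid treatment. Y728, a further line, was not analysed here.

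Clustered protocadherins are cell-surface adhesion proteins that give single neurons a molecular identity. Each Pcdha and Pcdhg variable exon has its own promoter and is spliced to the constant exons of its cluster, whereas Pcdhb genes consist of a single coding exon. In neurons, promoter choice is largely random for most members and depends on DNA methylation, CTCF and cohesin. The C-type members (Pcdhac1, Pcdhac2, Pcdhgc3, Pcdhgc4 and Pcdhgc5) lie at the 3′ ends of their clusters and are used more regularly. Pcdhgc4 is known for its part in neuronal survival, and Pcdhac2 for its part in the wiring of serotonergic axons.

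Libraries held 15361598 to 31338825 counts, of which the 57 genes took 289 to 1081, so most values below rest on a small number of reads per library. Pcdha and Pcdhg genes share their constant exons, and the counts largely leave shared bases out. Across the genome, 94.84% of the genes with every exon base shared have 0 counts, against 34.64% of genes with none shared, and Pcdhga10, with 0 unshared exon bases, has 3 counts in 48 libraries. Values of Pcdha and Pcdhg genes therefore come mainly from their own exons. The library protocol in the labels does not mark strand, so reads of antisense transcripts cannot be told apart from those of the genes. Markers of naive pluripotency summed to 3584 to 4708 CPM in mESC libraries and 219.6 to 482.0 CPM after ATRA. CPM is the count per 1e+06 library counts after TMM normalisation. For each library, GC content was correlated across genes (Spearman) with the deviation of the log2 level from the mean of its state's libraries. A677T replicate 3 in mESC and K634E replicate 3 in ATRA had the lowest of these correlations (-0.68 and -0.72). They also had the highest mitochondrial shares (2.703% and 2.77%) of their states, and K634E replicate 2 in mESC came close (-0.66 and 2.595%). The mean level of Ezh2 was 301.8 CPM in parental, 280.6 CPM in het and 439.4 CPM in WT in mESC, and 279.0, 238.6 and 362.2 CPM after ATRA. Ezh2 was called higher in WT than in het in both states, and lower in het than in parental after ATRA. After ATRA it was also called higher in A677T than in WT. In edgeR that call was lost with no filter on low counts (log2 change 0.20, adjusted p = 0.0652). It was also lost without A677T replicate 3 (0.15, adjusted p = 0.115) and without WT replicate 1 (0.0566) or 2 (0.0517). Levels of Ezh2 in the variant lines are not given here, so they were not shown to match WT.

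Pcdhg genes supplied nearly all clustered protocadherin RNA in both states. They made up 95.8% ± 1.4 of the summed level in mESC (SD, n = 24 libraries) and 88.6% ± 2.4 after ATRA. Per kilobase of unshared exon the shares were 97.5% and 92.5%. Their summed level was 17.8 to 33.0 CPM in single mESC libraries, with A677T lowest at 20.3, 20.4 and 17.8 CPM. No library of another line was that low, as the next in order was an R679C library at 21.1 CPM. After ATRA, A677T was again the line with the lowest mean, at 25.0 CPM, and the other lines ran from 28.3 CPM in parental to 32.7 CPM in K634E. The sums are descriptions and were not tested. In bulk RNA, fewer cells that express a gene and less RNA per cell cannot be told apart.

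Pcdhb and Pcdha RNA was scarce in mESC and more abundant after ATRA. The Pcdhb sum ranged from 0.0613 to 1.61 CPM in mESC libraries and from 1.5 to 5.50 CPM after ATRA, and in each of the 8 lines all ATRA libraries lay above all mESC libraries. By line, the mean Pcdhb sum was between 1.99 times (parental) and 4.34 times (A677T) its mESC value. After ATRA, A733T held the highest Pcdhb sums, at 5.50, 4.90 and 4.29 CPM, and A677T the lowest, at 1.5, 1.58 and 1.75 CPM. These lines did not overlap with each other or with any other line's libraries. The Pcdha sum was at most 0.633 CPM in mESC and 0.372 to 1.69 CPM after ATRA, again with no overlap between states in any line.

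**Figure D1:**
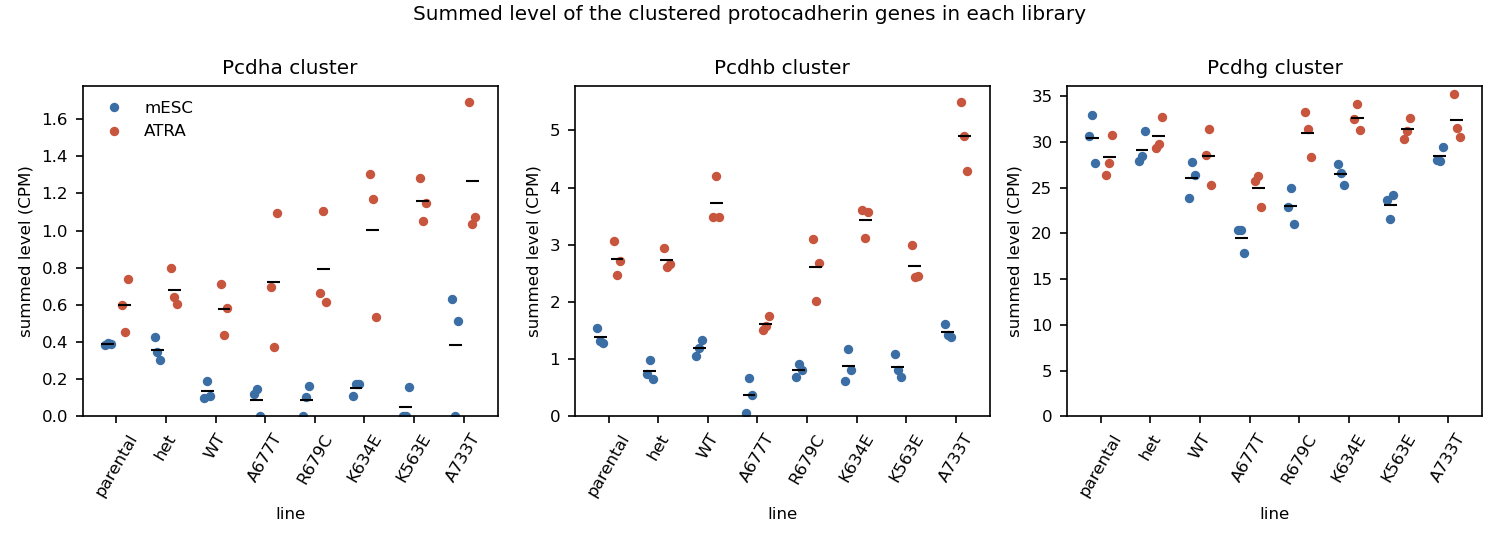
Summed level (CPM, vertical axis from 0) of the Pcdha, Pcdhb and Pcdhg genes in each library, by line. Points are libraries, blue for mESC and red for ATRA, and bars are means of 3 libraries. The Pcdhg sum was lowest in A677T in mESC, and the Pcdhb sum after ATRA was highest in A733T and lowest in A677T.

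Within the Pcdha cluster, Pcdhac2 was the main transcript. It had 46 counts in the 24 mESC libraries and 196 after ATRA, out of 95 and 414 for the whole cluster. Pcdha3 went from 1 to 60 counts, Pcdha5 from 9 to 28 and Pcdha2 from 4 to 25. Pcdha12, with 22 and 18 counts, was the member of the cluster with more counts in mESC than after ATRA. The other C-type member, Pcdhac1, had 3 and 8. Pcdha7 and Pcdha11 had 0 counts in mESC, and every member had at least 1 count after ATRA.

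Within the Pcdhb cluster, Pcdhb17 had the most reads, with 106 counts in mESC and 598 after ATRA, and a mean of 0.228 and 1.20 CPM. Pcdhb22 followed in mESC with 100 counts and had 147 after ATRA. The counts of Pcdhb2 were 44 and 127, those of Pcdhb14 were 49 and 128, and those of Pcdhb18 were 43 and 75. The remaining Pcdhb genes had 1 to 16 counts in mESC and 5 to 95 after ATRA. Pcdhb7, with 11 and 95 counts, was the highest of them after ATRA.

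Within the Pcdhg cluster, the C-type gene Pcdhgc3 was the most abundant transcript. Its mean was 6.59 CPM in mESC and 5.22 CPM after ATRA, and 3.24 CPM per kilobase over all libraries. Next per kilobase came Pcdhga11 (2.21 CPM), Pcdhga1 (0.930 CPM), Pcdhgb7 (0.746 CPM) and Pcdhga12 (0.652 CPM). The other C-type genes were far lower, with Pcdhgc5 at 0.119 CPM and Pcdhgc4 at 0.104 CPM per kilobase. Pcdhga6, with 35 and 34 counts, was the least abundant of the genes that could be measured. Pcdhga10 has 0 unshared exon bases, so its few counts do not show how abundant it was. The first gene of the cluster, Pcdhga1, and the last variable genes before the C-types, Pcdhga11 and Pcdhga12, were thus the most abundant variable transcripts in CPM.

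A filter on low counts left 18 of the 57 genes for testing in mESC, all of them Pcdhg, and 21 after ATRA and across states, which were 19 Pcdhg genes, Pcdhb17 and Pcdhac2. Pcdhb17, Pcdhac2 and Pcdhgb1 had too few reads to be tested in mESC. They passed the filter across states through the ATRA libraries, so a rise with ATRA was favoured by how they entered that fit. Each state was fitted on its 24 libraries, and states were compared in a fit of all 48, with edgeR's quasi-likelihood test. P-values were adjusted by Benjamini-Hochberg across every gene in the fit, a change was called where the adjusted p was under 0.05, and changes are log2 fold changes with their standard error (SE).

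**Figure D2:**
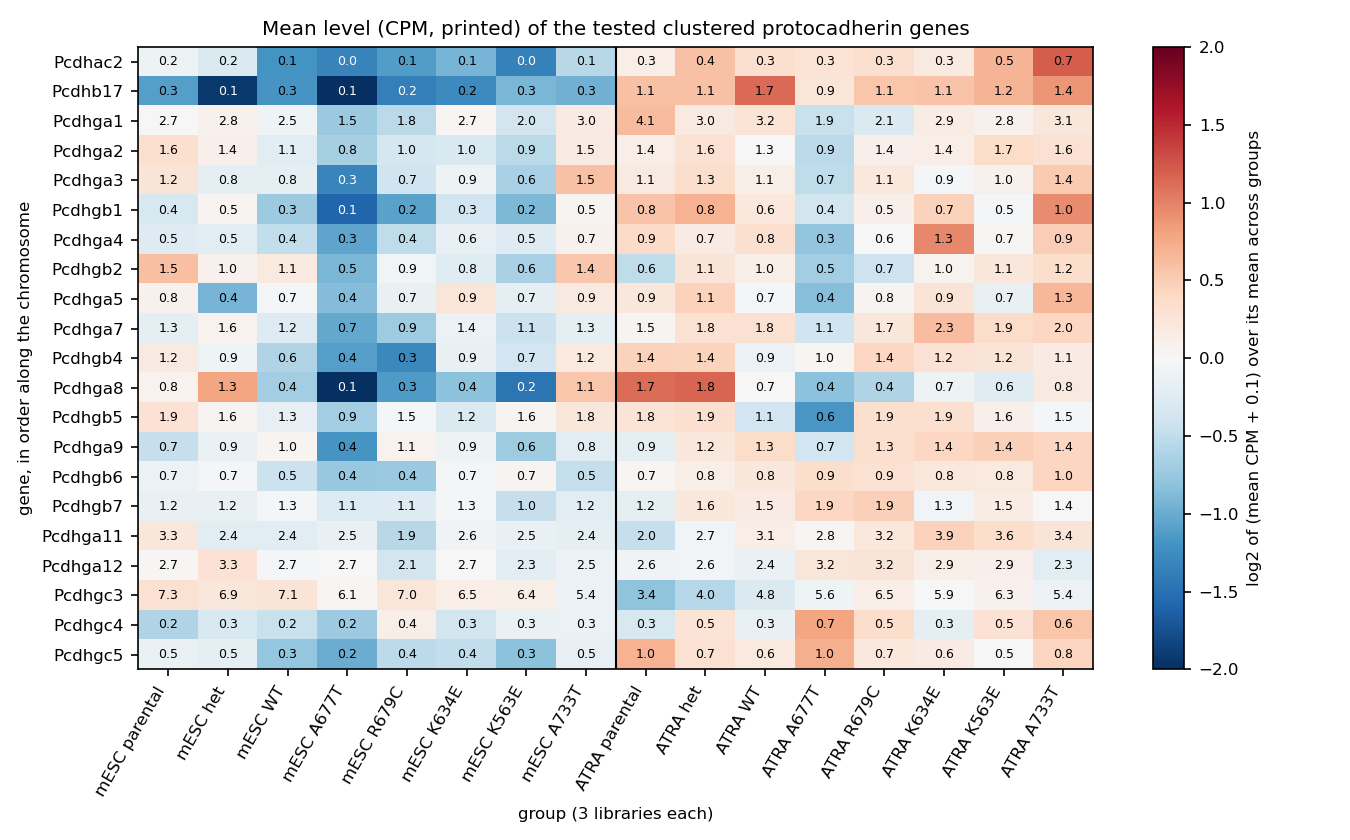
Mean level of the 21 tested genes (rows, in order along the chromosome) in the 16 groups (columns, 3 libraries each), printed in CPM. Colour gives log2 of the mean plus 0.1 CPM over its mean across groups, from blue (low) to red (high). Pcdhb17 and Pcdhac2 are redder after ATRA in most lines, and Pcdhgc3 is paler or bluer after ATRA in parental and het.

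Pcdhb17 rose with ATRA in each of the 4 single lines tested and in the mean of the Weaver variants. Pcdhb17 and Pcdhac2 passed the filter through the ATRA libraries, so their rises are not independent of it. In WT, Pcdhb17 was 0.101, 0.238 and 0.443 CPM in mESC and 1.75, 2.14 and 1.16 CPM after ATRA, a rise of 2.69 (SE 0.40, adjusted p = 1.53e-07). It rose by 1.93 (SE 0.42) in parental, by 3.23 (SE 0.48) in het, by 2.14 (SE 0.40) in A733T and by 2.41 (SE 0.24) in the mean of the 4 Weaver variants. The mESC and ATRA libraries did not overlap in any of these. Pcdhac2 rose by 2.52 in WT (SE 0.83, adjusted p = 0.00794), by 2.43 in A733T (SE 0.63) and by 2.57 in the Weaver mean (SE 0.42). In WT it stood at 0.0506, 0.0477 and 0.0553 CPM in mESC, about 1 read per library, and at 0.437, 0.237 and 0.313 CPM after ATRA. It did not pass in het (1.27, SE 0.60) or parental (0.36, SE 0.64), where its mESC means of 0.181 and 0.223 CPM were the highest of the 8 lines.

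Pcdhgc3 fell with ATRA in the lines without an EZH2 variant. In parental cells it went from 8.68, 7.46 and 5.89 CPM to 3.59, 3.22 and 3.26 CPM (-1.13, SE 0.18, adjusted p = 4.78e-07). In het it went from 7.43, 6.55 and 6.85 CPM to 3.65, 4.36 and 3.88 CPM (-0.81, SE 0.17, adjusted p = 6.7e-05). In WT it went from 5.92, 8.10 and 7.14 CPM to 5.57, 4.55 and 4.39 CPM (-0.55, SE 0.17, adjusted p = 0.00454, or 0.0578 without WT replicate 2 in mESC). The libraries of the states did not overlap in any of the 3. In the mean of the Weaver variants its change was -0.10 (SE 0.08, not called), and in A733T it was -0.0025 (SE 0.17, not called). Its value in the Weaver mean was the only 1 of the 21 tested genes below 0. Without A677T replicate 3 in mESC and K634E replicate 3 in ATRA, 1 of the 21 was called lower in that mean. The difference between the Weaver mean and WT in the change with ATRA was 0.45 (SE 0.19) and was not called (adjusted p = 0.156), and the same difference against parental or het was not tested.

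**Figure D3:**
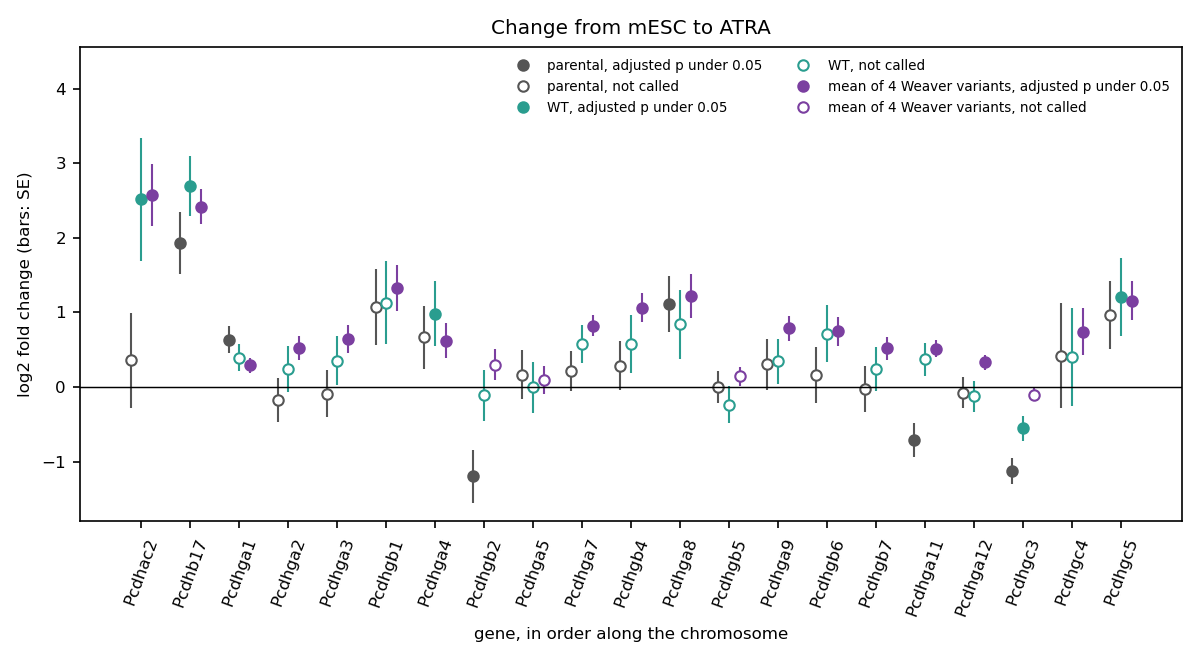
Log2 fold change from mESC to ATRA of the 21 tested genes (vertical axis, bars are SE) in parental, WT and the mean of the 4 Weaver variants, in order along the chromosome. Filled points have an adjusted p under 0.05. Pcdhb17 rose in all 3, and Pcdhgc3 lay below 0 in parental and WT and near 0 in the Weaver mean.

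In WT, 4 genes rose and 1 fell with ATRA of the 21 tested, where 59.0% of all genes tested were called (29.8% as higher and 29.2% as lower), and the other 2 that rose were Pcdhga4 (0.98, SE 0.43) and Pcdhgc5 (1.20, SE 0.52). The call of Pcdhga4 was lost with no filter (0.0784) and when any 1 of the WT libraries was left out, other than replicate 1 in ATRA (adjusted p from 0.0554 to 0.256). The call of Pcdhgc5 was lost with no filter (0.0566) and without WT replicate 1 or 2 of either state (adjusted p from 0.0913 to 0.205). The number called was 10 with a correction for GC content, 8 with that and the replicate block, and 3 without WT replicate 2 in ATRA or replicate 1 or 2 in mESC. In parental cells 3 rose and 3 fell (55.2% of all genes called, 28.6% as higher and 26.5% as lower). Pcdhga1 rose from 2.7, 2.97 and 2.33 CPM to 4.04, 4.02 and 4.34 CPM (0.63, SE 0.18), and Pcdhga8 stood higher by 1.11 (SE 0.38, adjusted p = 0.0115), a call lost with the replicate block (0.168) and without ATRA replicate 2 (0.076), ATRA replicate 3 (0.0676) or mESC replicate 3 (0.089) of parental. Pcdhgb2 fell by 1.20 (SE 0.36), with an adjusted p of 0.0523 without parental replicate 2 in ATRA. Pcdhga11 fell by 0.70 (SE 0.23), with an adjusted p of 0.074 without parental replicate 2 in mESC. In het 2 rose and 1 fell (56.8% of all genes called, 29.4% as higher and 27.4% as lower), and Pcdhga5 went from 0.319, 0.394 and 0.347 CPM to 0.766, 1.15 and 1.36 CPM (1.58, SE 0.36). In A733T 4 rose and none fell (55.8% of all genes called, 28.9% as higher), and they included Pcdhgb6 (1.01, SE 0.38), whose call was lost with no filter (0.06) and without A733T replicate 3 in ATRA (0.0818) or replicate 1 in mESC (0.0728). Another was Pcdhga7 (0.64), whose call was lost with no filter (0.103) and with the replicate block (0.0646). It was also lost without any 1 of the A733T libraries other than replicate 3 in ATRA (0.0672 to 0.188). The number was 7 with the GC correction.

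In the mean of the 4 Weaver variants, 17 of the 21 tested genes rose with ATRA and none fell, where 75.2% of all genes tested were called, 38.7% as higher. That comparison rests on 24 libraries, against 6 for a single line, so its counts are not comparable with those of single lines. The median change of the 21 genes was 0.64, against 0.01 over all genes tested. The 17 and the median include Pcdhb17, Pcdhac2 and Pcdhgb1, which passed the filter through the ATRA libraries. Beside Pcdhb17 and Pcdhac2, the changes were largest in Pcdhgb1 (1.33, SE 0.31), Pcdhga8 (1.22, SE 0.29), Pcdhgc5 (1.16, SE 0.26) and Pcdhgb4 (1.06, SE 0.19). The number was 14 with the replicate block. Without A677T replicate 3 in mESC and K634E replicate 3 in ATRA, 16 rose and 1 fell. With no filter on low counts, all 57 genes were tested and 26 rose, where 15427 of all genes were called in either direction. The share of all genes called in that run is not given here, so the 26 cannot be set against it. The added ones were Pcdha2, Pcdha3, Pcdha5, Pcdha6, Pcdha7, Pcdhb2, Pcdhb3, Pcdhb7, Pcdhb15 and Pcdhb22. Of these, Pcdha3 showed the largest change, 4.51 (adjusted p = 1.14e-06), a fitted value that rests on few reads. In the test of whether the Weaver mean responded to ATRA differently from WT, none of the 21 genes was called by edgeR or DESeq2, 1 had an unadjusted p under 0.05, and 7.07% of all genes tested were called.

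Het was compared with parental. Each genotype is 1 labelled line, here and in the comparisons below, so its effect cannot be told apart from other differences between lines. None of the 18 genes tested in mESC or of the 21 tested after ATRA was called by edgeR or DESeq2, where 3.44% and 6.25% of all genes were. By unadjusted p under 0.05 there was 1 in mESC and there were 3 after ATRA. Pcdhga1 after ATRA was 4.04, 4.02 and 4.34 CPM in parental and 2.82, 3.51 and 2.67 CPM in het, without overlap, at a change of -0.47 (SE 0.18, not called).

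WT, the line with added wild-type EZH2, was compared with het. The added EZH2 and other differences between these lines cannot be told apart. In both states the gene that differed most was Pcdhga8, which was lower in WT. In mESC it was 1.17, 1.77 and 1.08 CPM in het and 0.354, 0.286 and 0.609 CPM in WT (-1.69, SE 0.45, adjusted p = 0.0138). It was the only 1 of 18 genes called, where 12.1% of all genes were (6.84% as lower), and the call was lost when WT replicate 1 (0.0642), WT replicate 2 (0.072) or het replicate 2 (0.084) was left out. After ATRA it was 1.62, 1.71 and 1.96 CPM in het and 0.600, 0.831 and 0.761 CPM in WT (-1.24, SE 0.33, adjusted p = 0.00931). Pcdhgb5 was also lower in WT after ATRA, at 1.09, 1.07 and 1.25 CPM against 1.99, 1.54 and 2.16 CPM in het (-0.73, SE 0.20, adjusted p = 0.0123, but 0.0596 without het replicate 3 and 0.0805 with no filter). These were the 2 of 21 genes called after ATRA, where 16.4% of all genes were, 8.74% as lower.

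Across the 8 lines, Pcdhga8 had its highest means in het (1.34 CPM), A733T (1.12 CPM) and parental (0.773 CPM) in mESC, and in het (1.77 CPM) and parental (1.70 CPM) after ATRA. The order below them in mESC was WT (0.416 CPM), K634E (0.373 CPM), R679C (0.281 CPM), K563E (0.205 CPM) and A677T (0.0934 CPM), and neighbours in that order overlapped. The parental libraries after ATRA, at 0.773, 2.21 and 2.12 CPM, were the most spread.

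**Figure D4:**
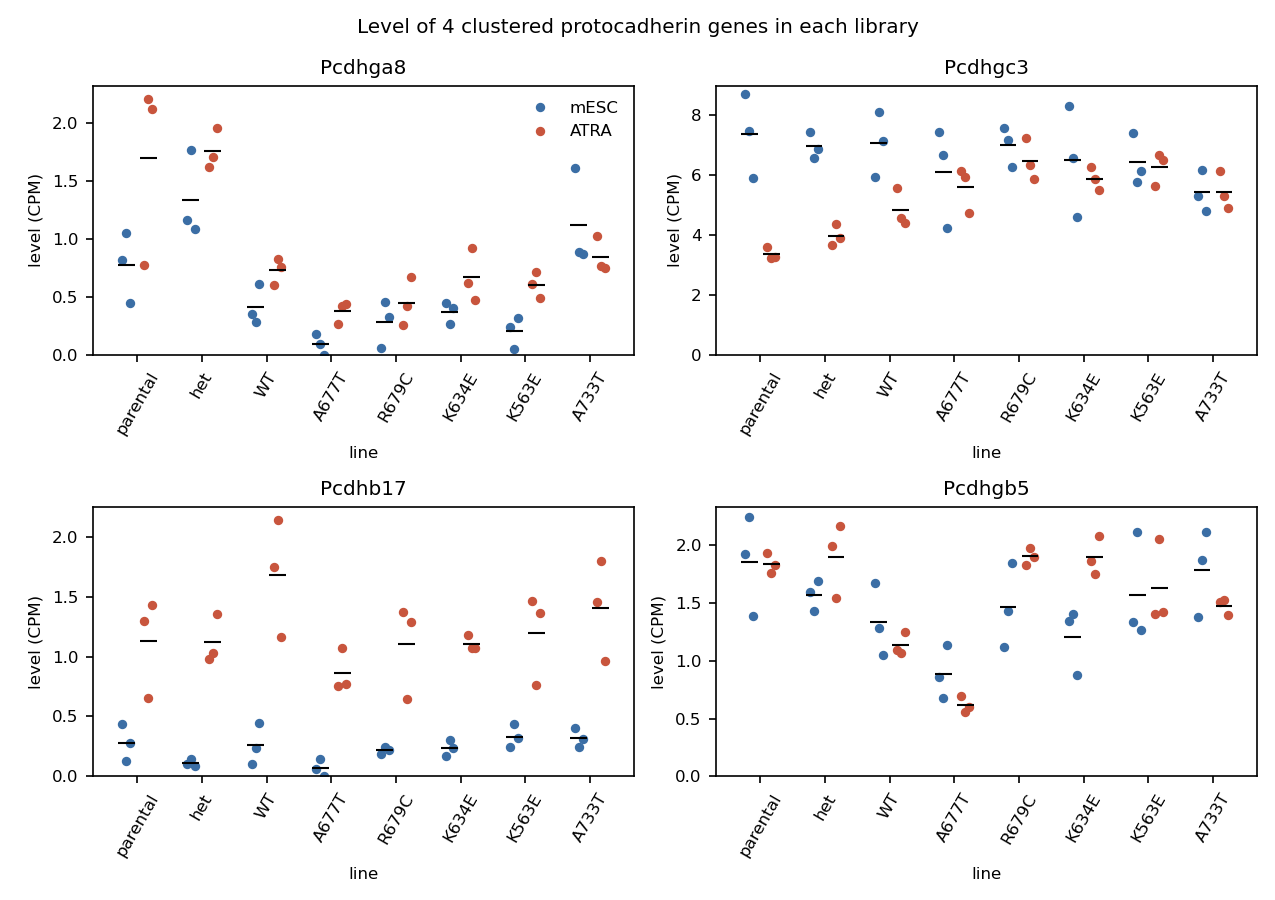
Level (CPM, vertical axis from 0) of Pcdhga8, Pcdhgc3, Pcdhb17 and Pcdhgb5 in each library, by line. Points are libraries, blue for mESC and red for ATRA, and bars are means of 3 libraries. Pcdhga8 was higher in het than in WT in both states, Pcdhgc3 was lower after ATRA in parental, het and WT, and Pcdhgb5 after ATRA was lowest in A677T.

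A677T was compared with WT in each state. In mESC, 6 of the 18 genes tested fell and none rose, where 44.6% of all genes tested were called (22.2% as lower), and 16 of the 18 fold changes were below 0. Their median was -0.50, against -0.01 over all genes tested. Pcdhga9 went from 0.810, 1.19 and 1.11 CPM in WT to 0.368, 0.0965 and 0.693 CPM in A677T (-1.45, SE 0.40, adjusted p = 0.00441). Pcdhga3 went from 0.911, 0.858 and 0.775 CPM to 0.306, 0.241 and 0.441 CPM (-1.34, SE 0.42), and Pcdhgb2 from 1.16, 1.29 and 0.830 CPM to 0.613, 0.241 and 0.504 CPM (-1.27, SE 0.40). Pcdhga1 fell by 0.65 (SE 0.21) from 2.48, 2.57 and 2.38 CPM to 1.78, 1.35 and 1.51 CPM. The WT and A677T libraries did not overlap for any of these. Pcdhga8, at 0.184, 0.0965 and 0 CPM in A677T, stood at -2.01 (SE 0.74, adjusted p = 0.0299) and Pcdhga7 at -0.80 (SE 0.31, adjusted p = 0.0381). Pcdhga8 lost its call without A677T replicate 2 (0.0635), A677T replicate 3 (0.12) or WT replicate 3 (0.125). Pcdhga7 lost it in DESeq2 (0.0608), with the GC correction (0.0614), with no filter (0.0936), without any 1 of the A677T libraries (0.0601 to 0.0946) and without WT replicate 2 (0.135) or 3 (0.0595). Without A677T replicate 2, Pcdhga3 (0.055), Pcdhgb2 (0.0741) and Pcdhga1 (0.0591) also missed the threshold. The number called was 5 with the GC correction, 4 without A677T replicate 3 and 2 without A677T replicate 2. The correlation of GC content with deviations from the mean of all mESC libraries ran from 0.44 to 0.65 in the WT libraries. In those of A677T it ran from -0.68 to -0.04.

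After ATRA, 4 of the 21 genes fell in A677T against WT and none rose, where 19.4% of all genes tested were called, 11.1% as lower. Pcdhgb5 was 1.09, 1.07 and 1.25 CPM in WT and 0.698, 0.559 and 0.603 CPM in A677T (-0.88, SE 0.25, adjusted p = 0.0141), a call lost with no filter (0.0994) and without A677T replicate 2 (0.0658) or WT replicate 3 (0.0599). Pcdhga1 was 2.57, 4.12 and 3.0 CPM in WT and 1.72, 2.23 and 1.81 CPM in A677T (-0.76, SE 0.20, adjusted p = 0.00852, or 0.106 without WT replicate 2). Pcdhga4 was 0.437, 1.15 and 0.895 CPM in WT and 0.430, 0.279 and 0.274 CPM in A677T (-1.37, SE 0.41, adjusted p = 0.0167). That call was lost without A677T replicate 2 (0.0674) or 3 (0.0664) or WT replicate 2 (0.131). Pcdhb17 fell by 0.95 (SE 0.33, adjusted p = 0.0412), a call lost without A677T replicate 1 or 3 or WT replicate 1 or 2 (adjusted p from 0.0891 to 0.217). The number called was 1 without WT replicate 2 and 2 without A677T replicate 3. With no filter on low counts, Pcdhb14 (-4.08, adjusted p = 0.000829) and Pcdhb7 (-3.81, adjusted p = 0.00549) were called as well. In that run 57 of the clustered genes were tested and 2908 of all genes were called in either direction. Pcdhga1 was called lower in both states. The changes in the 2 states were not tested against each other.

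The fold changes of A677T against WT were also set in order along the Pcdhg cluster, most of them not called. From Pcdhga1 to Pcdhga9 along the cluster, every fold change against WT in mESC was below 0, and after ATRA every one but Pcdhgb4 (0.16, SE 0.30). From Pcdhgb6 on they lay between -0.38 and 0.10 in mESC and between -0.13 and 1.12 after ATRA. Across genes, Spearman's rho of the fold change with order in the cluster was 0.66 in mESC (18 genes) and 0.66 after ATRA (19 genes), and with GC content 0.47 and 0.46. The rho with order was also 0.55 in mESC and 0.69 after ATRA for the Weaver mean against WT, which includes A677T, and 0.37 and 0.52 for R679C against WT, and all of these share the WT libraries. For K634E and K563E against WT it was 0.011 and 0.35 in mESC and 0.0070 and 0.30 after ATRA. The genes of a comparison share libraries and are not independent. At the 3′ end, Pcdhgc4 was 0.273, 0.317 and 0.358 CPM in WT after ATRA and 0.806, 0.745 and 0.548 CPM in A677T, without overlap (1.12, SE 0.46, not called).

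**Figure D5:**
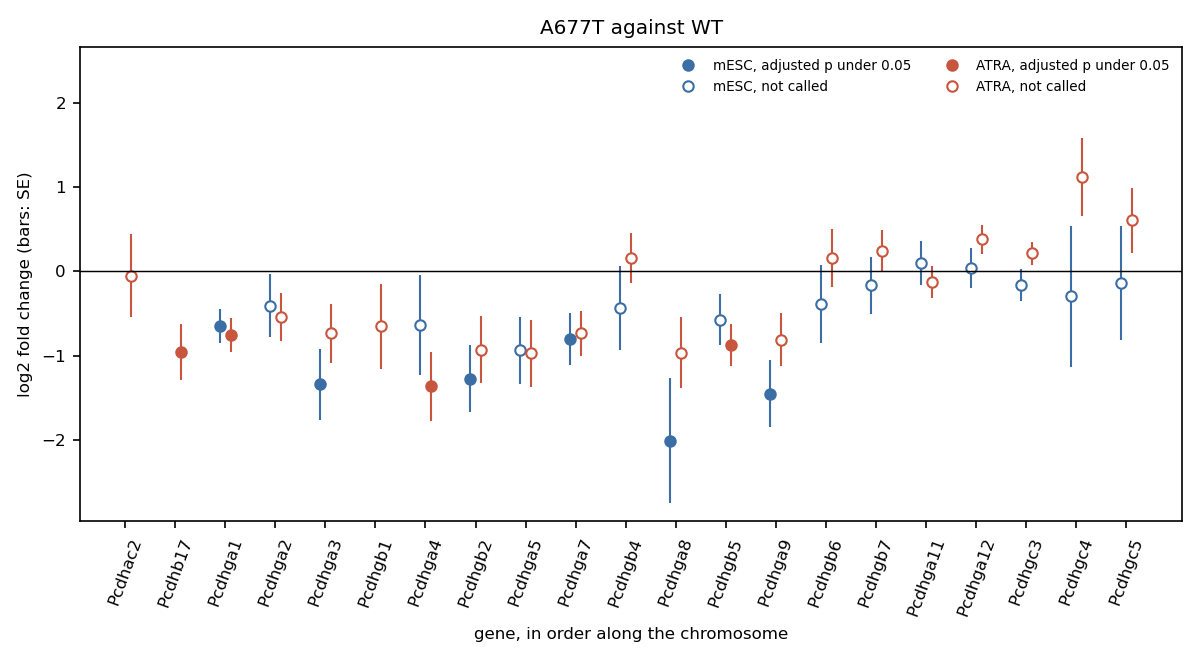
Log2 fold change of A677T against WT (vertical axis, bars are SE) for the tested genes, in order along the chromosome, blue for mESC and red for ATRA. Filled points have an adjusted p under 0.05. In mESC 16 of 18 values lie below 0, and after ATRA the values of the last genes of the Pcdhg cluster lie near or above 0.

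The other 3 Weaver variants were each compared with WT. In mESC none of the 18 genes was called by edgeR or DESeq2 in R679C, K634E or K563E, where 23.7%, 29.3% and 34.5% of all genes were, and 1, 0 and 2 genes had an unadjusted p under 0.05. After ATRA, Pcdhgb5 was higher than WT in R679C (1.83, 1.98 and 1.90 CPM, change 0.75, SE 0.21, adjusted p = 0.0168) and in K634E (1.86, 1.75 and 2.08 CPM, change 0.74, SE 0.21, adjusted p = 0.0175). Pcdhgc3 was higher in R679C (0.43, SE 0.13, adjusted p = 0.0365) and K563E (0.38, SE 0.14, adjusted p = 0.047), and Pcdhga1 was lower in R679C (-0.61, SE 0.20, adjusted p = 0.0493). In all, 3 of 21 genes were called in R679C, 1 in K634E and 1 in K563E, where 10.3%, 15.0% and 20.5% of all genes were. Higher calls made up 4.87%, 7.38% and 8.53% of all genes tested, and lower calls in R679C 5.45%. Each of these 5 calls was lost without at least 1 library and with no filter on low counts. No gene was called in R679C without R679C replicate 2 or WT replicate 2, in K634E without K634E replicate 3 or WT replicate 1 or 2, or in K563E without K563E replicate 2 or 3 or WT replicate 2 or 3.

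A677T was set against the mean of R679C, K634E and K563E in a comparison added after the data were seen. After ATRA, Pcdhgb5 was lower in A677T by log2 -1.55 (SE 0.20, adjusted p = 3.13e-06). It was 1.41, 2.06 and 1.42 CPM in K563E, so that no library of the 3 other variants reached down to the A677T libraries. With it, Pcdhga4 (-1.33, SE 0.36), Pcdhga5 (-1.10, SE 0.34), Pcdhga7 (-0.87, SE 0.23), Pcdhga9 (-0.85, SE 0.27) and Pcdhga2 (-0.78, SE 0.24) fell, 6 of 21 with none higher, where 12.5% of all genes tested were called, 6.42% as lower. The number was 3 without A677T replicate 1 and 2 without A677T replicate 3. Without A677T replicate 2, Pcdhga4 (0.0783) and Pcdhga5 (0.149) missed the threshold, and without A677T replicate 3 they stood at 0.0598 and 0.113. Pcdhga5 also lost its call without replicate 2 of K563E (0.0652), K634E (0.0528) or R679C (0.053). Pcdhga2 also lost its call with no filter (0.0584) and without R679C replicate 2 (0.0552), and Pcdhga9 with no filter (0.0525) and without K563E replicate 1 (0.0558). In mESC, Pcdhga9 (-1.16, SE 0.35), Pcdhga3 (-1.13, SE 0.37) and Pcdhga5 (-0.97, SE 0.34) were lower, 3 of 18 with none higher, where 15.3% of all genes were called, 7.26% as lower. None was called without A677T replicate 1, and 1 without A677T replicate 2, K563E replicate 3, K634E replicate 1, or R679C replicate 1 or 3. Pcdhga5 lost its call in DESeq2, with no filter, with the GC correction, with the replicate block, and without any 1 of the A677T or K563E libraries, K634E replicate 1 or 2, or R679C replicate 1 or 3 (0.0503 to 0.168). Pcdhga3 lost it with no filter (0.0604). Among all 8 lines, A677T had the lowest mean for 12 of the 18 tested genes in mESC and for 12 of 21 after ATRA. Next came R679C with 3 in mESC and parental with 6 after ATRA. The share of all genes for which A677T was lowest is not given here, so these numbers have no background beside them.

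The mean of the 4 Weaver variants was also set against WT. In mESC only Pcdhgb2 of 18 genes was called (-0.73, SE 0.28, adjusted p = 0.0342), where 44.4% of all genes were, 22.9% as lower. Its mean was 1.09 CPM in WT and 0.453, 0.896, 0.782 and 0.560 CPM in A677T, R679C, K634E and K563E. The call was lost with the GC correction (0.0674) and without A677T replicate 2 (0.0522), K563E replicate 3 (0.0507), WT replicate 1 (0.109) or WT replicate 2 (0.173), and without A677T replicate 3 there were 2 calls. After ATRA, Pcdhgc3 was higher (0.33, SE 0.11, adjusted p = 0.0313), and Pcdhb17 (-0.68, SE 0.24) and Pcdhga1 (-0.43, SE 0.15) were lower, 3 of 21, where 20.5% of all genes were called (8.43% as higher and 12.1% as lower). Pcdhgc3 stood at 4.84 CPM in WT and 5.58, 6.47, 5.86 and 6.26 CPM in the same variants. The 3 calls became 0 without WT replicate 2, and 1 without WT replicate 3, A677T replicate 1 or 3, K634E replicate 1 or R679C replicate 2. Pcdhb17 also missed the threshold without K563E replicate 2 (0.0692), K634E replicate 2 (0.0551) or WT replicate 1 (0.135), and Pcdhga1 without K563E replicate 1 (0.0626) or R679C replicate 1 (0.0575). DESeq2 called Pcdhgc3 alone, and with no filter Pcdhgc3 (0.122) and Pcdhga1 (0.0818) were not called.

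In A733T, Pcdhga8 was higher than in WT in mESC, at 1.61, 0.888 and 0.876 CPM (1.45, SE 0.47, adjusted p = 0.0298), 1 of 18 genes called, where 19.3% of all genes were, 10.7% as higher. The call was lost without A733T replicate 1 (0.175), WT replicate 1 (0.0958) or WT replicate 2 (0.111). After ATRA none of 21 genes was called by edgeR or DESeq2, where 17.7% of all genes were, and 2 had an unadjusted p under 0.05. Without WT replicate 3, 1 was called.

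In a second comparison added after the data were seen, A733T was set against the mean of the Weaver variants. In mESC, 7 of 18 genes were higher in A733T and none lower, where 50.3% of all genes tested were called, 26.8% as higher. Pcdhga8 differed by 2.31 (SE 0.38, adjusted p = 1.14e-05) and Pcdhga3, at 1.61, 1.48 and 1.44 CPM in A733T, by 1.34 (SE 0.26, adjusted p = 9.44e-05). All A733T libraries exceeded all Weaver libraries for both. Pcdhgb2 (1.09, SE 0.27), Pcdhgb4 (1.01, SE 0.32), Pcdhga2 (0.67, SE 0.27), Pcdhga1 (0.58, SE 0.15) and Pcdhgb5 (0.50, SE 0.21) were the others, and 4 were called without A733T replicate 3. Pcdhga2 lost its call without A733T replicate 1 or 3, K563E replicate 2, K634E replicate 1 or R679C replicate 2 (0.0535 to 0.349). Pcdhgb5 lost it in DESeq2, with no filter, with the replicate block, and without replicate 1 or 2 of A677T, 2 or 3 of A733T, 1 or 3 of K563E, 3 of K634E, or 1 or 2 of R679C (0.0524 to 0.258). After ATRA, Pcdhac2 (1.0, SE 0.33), Pcdhgb1 (0.98, SE 0.34), Pcdhga5 (0.91, SE 0.26) and Pcdhga3 (0.64, SE 0.25) were higher and Pcdhga12 was lower (-0.39, SE 0.14), 5 of 21, where 48.5% of all genes were called (27.0% as higher and 21.5% as lower). Pcdhga5 was 1.27, 1.26 and 1.29 CPM in A733T and at most 1.22 CPM in a Weaver library. The number was 2 without A733T replicate 1 and 3 without replicate 2 or 3. Pcdhga3 also missed the threshold in DESeq2, with no filter, and without A677T replicate 2 or 3, K634E replicate 2 or R679C replicate 2 (0.0518 to 0.0543). With no filter, 8 of 57 were called, where 8465 of all genes were, a number whose share of the genes tested is not given here. Among the 8 were Pcdhb2 (1.83), Pcdhb4 (2.82), Pcdhb6 (2.23), Pcdhb7 (2.18) and Pcdhb14 (1.98), all higher in A733T.

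Genes known to act on clustered protocadherin promoters (CTCF, cohesin and its loaders and releasers, DNA methyltransferases and their partners, SETDB1, and others, 24 tested) changed in both directions with ATRA in WT, where 11 rose and 7 fell. Of all genes tested, 59.0% were called in that comparison, 29.8% as higher and 29.2% as lower. The median change of the 24 was 0.17, against 0.02 over all genes tested. Dnmt3a, a de novo DNA methyltransferase, rose by 2.99 (SE 0.08), Dnmt3b, the other enzyme of that kind, by 0.90 (SE 0.06) and Tet3, which oxidises methylated cytosine, by 2.05 (SE 0.11). Lhx2, a homeodomain factor, rose by 2.24 (SE 0.36). Tet1 fell by 1.03 (SE 0.12) and Uhrf1, the partner of the maintenance methyltransferase, by 0.69 (SE 0.07). Ctcf rose by 0.21 (SE 0.06). In A677T against WT in mESC, where 44.6% of all genes were called, 12 of the 24 rose and 3 fell, with a median of 0.17. With the GC correction, however, 9 rose and 7 fell, with a median of 0.02. Dnmt3a was higher by 0.44 (SE 0.08) and Uhrf1 lower by 0.53 (SE 0.07) in these cells. After ATRA, where 19.4% of all genes were called, 3 of the 24 were higher in A677T and none lower, among them Dnmt3a (0.28, SE 0.07). With the GC correction 5 were higher and 2 lower. Without A677T replicate 1 or 3 or WT replicate 1, 1 was higher. The others were Setdb1, whose call was lost with no filter (0.274) and without A677T replicate 1 or 3 or WT replicate 1 or 3 (0.0718 to 0.0976), and Stag2, whose call was lost without any 1 of the A677T libraries or WT replicate 1 or 2 (0.0501 to 0.217).

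Protocadherin genes outside the clusters code for related single adhesion proteins. Of 12 listed, 6 were tested across states, and 4 of these 6 had too few reads to be tested in mESC and passed the filter through the ATRA libraries. The 6 were called higher after ATRA in WT, where 59.0% of all genes were called, 29.8% as higher. With no filter on low counts, 8 of the 12 were called higher and none lower, where 10447 of all genes were called. The median change of the 12 was 3.95. Pcdh8 rose by 6.33 (SE 0.24), from a mean of 0.279 CPM to 23.8 CPM, Pcdh1 by 4.79 (SE 0.17) and Pcdh18 by 3.75 (SE 0.34). Their changes were not tested against those of the clustered genes. In A677T after ATRA, Pcdh17 was higher (0.93, SE 0.25), a call lost without A677T replicate 3 (0.0511) or WT replicate 2 (0.101), and Pcdh19, a gene of female-limited epilepsy, was lower (-0.62, SE 0.12) than in WT, and the other 4 were not called. In mESC neither of the 2 tested was called. Of all genes tested, 19.4% were called after ATRA and 44.6% in mESC.

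Partners and effectors of the clustered protocadherins (kinases, the WAVE complex, AXIN1 and the proteases that cut the proteins, 13 tested) showed 6 higher and 3 lower with ATRA in WT. Of all genes tested, 59.0% were called in that comparison. In A677T against WT, 6 were higher and 2 lower in mESC, and 3 were higher and 3 lower after ATRA. The shares of all genes called there were 44.6% and 19.4%. Ret, a receptor tyrosine kinase, was lower in A677T in mESC (-1.78, SE 0.39) and after ATRA (-1.37, SE 0.24). Adam10, the sheddase, was higher in both (0.84, SE 0.09, and 0.53, SE 0.07).

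Genes that lie between and beside the clusters on the chromosome (18 listed) moved in both directions. Pcdh1 and Pcdh12 are among the 18 and also among the protocadherins outside the clusters, and the rise of Pcdh1 is given with those. With ATRA in WT, 5 rose and 9 fell of 18 tested (59.0% of all genes called), with a median of -0.16. Arap3 rose by 3.63 (SE 0.20) and Fchsd1 fell by 1.18 (SE 0.17), both on the 3′ side of the Pcdhg cluster. In A677T against WT, 1 was higher and 4 lower of 15 tested in mESC (44.6% of all genes called), with a median of -0.15. The median was -0.02 without A677T replicate 3 and -0.23 with the GC correction. With that correction none was higher and 3 were lower, and without WT replicate 2 the numbers were 1 and 2. Tmco6 was lower (-0.71, SE 0.12). The higher one was Taf7 (0.26, SE 0.08), which lies between the Pcdhb and Pcdhg clusters, and its call was lost without A677T replicate 3 (0.0733) or WT replicate 3 (0.0842). With the GC correction Taf7 stood at -0.17 (adjusted p = 0.0529), and with that and the replicate block it was called lower (-0.17, adjusted p = 0.0174). After ATRA, Arap3 (-0.49, SE 0.12) and Cd14 (-1.03, SE 0.24) were lower and the other 16 of 18 were not called (19.4% of all genes called).

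Cell type markers moved with several of these comparisons, and their part in the results was not tested. Of all genes tested, 59.0% were called with ATRA in WT, 29.8% as higher and 29.2% as lower. With ATRA in WT, all 8 naive pluripotency markers fell, 5 of 7 tested neural progenitor markers rose and 1 fell, 3 of 8 neuron markers rose and 3 fell, 5 of 6 tested endoderm markers rose and 1 fell, and 4 of 5 tested fibroblast markers rose and 1 fell. The summed level of the neuron markers was 376.7 to 492.1 CPM in mESC libraries and 80.0 to 143.4 CPM after ATRA. Most of it was Stmn2, at 192.4 to 298.3 CPM in mESC and 28.3 to 47.1 CPM after ATRA, and Tubb3, at 127.5 to 199.4 CPM and 32.9 to 76.6 CPM. The neuron markers Dcx, Snap25, Syt1 and Rbfox3 were at most 2.52 CPM in any library. The sum of the neural progenitor markers was 48.6 to 92.2 CPM and 87.0 to 194.1 CPM. In mESC most of it was Olig2, at 27.9 to 77.1 CPM, and 4.37 to 10.8 CPM after ATRA. After ATRA most of it was Sox1, at 53.8 to 132.9 CPM, and 1.95 to 7.47 CPM in mESC. The sum of the fibroblast markers was 1269.6 to 2713 CPM in mESC and 811.7 to 1569 CPM after ATRA, nearly all of it Fn1, at 1268 to 2709.9 CPM and 794.4 to 1551 CPM. Postn had 0 counts in mESC and 8 after ATRA, and Lum 3 and 6.

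For A677T against WT, 44.6% of all genes were called in mESC (22.2% as lower) and 19.4% after ATRA (11.1% as lower). In mESC, 5 of 8 naive markers were lower and none higher, with sums of 3584 to 3918 CPM in A677T and 4405 to 4526 CPM in WT. With the GC correction 4 were lower and 2 higher, and without A677T replicate 3 or WT replicate 3 there were 3 lower. Of the fibroblast markers, 3 of 4 tested were lower and none higher, with sums of 1450.5 to 1591 CPM in A677T and 2135 to 2232 CPM in WT. For neuron markers 2 of 5 tested were higher and 2 lower, for trophoblast markers 1 of 5 higher and 2 lower, for neural progenitor markers 1 of 4 higher and 1 lower, for endoderm markers 1 of 3 higher and 1 lower, for mesoderm markers none of 4 higher and 1 lower, and for general pluripotency markers none of 4 was called. After ATRA, 4 of 6 tested endoderm markers were lower in A677T and none higher, with sums of 181.8 to 190.7 CPM against 249.6 to 253.7 CPM in WT. Sparc was the largest part of these sums, at 69.7 to 162.4 CPM across the ATRA libraries of all lines. Of the fibroblast markers, 4 of 5 tested were lower and none higher, with sums of 992.7 to 1055 CPM against 1140.3 to 1327 CPM. Of the neuron markers 2 of 8 were lower and 1 higher, or 4 and 1 with the GC correction, with sums of 84.9 to 93.8 CPM against 97.6 to 100.3 CPM. Naive markers had 3 higher and 2 lower of 8, general pluripotency markers 2 higher of 4, mesoderm markers 1 higher of 5, and neural progenitor and trophoblast markers 1 higher and 1 lower of 7 and of 5.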

How the data were processed

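Libraries were made from poly(A) RNA with random hexamer priming, per the labels' protocols. The authors deposited 1 table of raw counts per gene, without normalisation. The submitters' processing notes list STAR 2.7.3a, cutadapt 3.2, DESeq2 1.38.3, featureCounts 1.6.4 and, as the build, mm10. They do not give the annotation release, the strand setting or the handling of reads shared between genes. Of 55401 identifiers, 55141 matched GENCODE M21 and 260 did not. Each column was tied to its sample by the line, state and number in its name. The columns of parental, named flfl, were tied through the sample descriptions. Another 6 columns could be tied to no sample and stayed out, so the planned comparisons of Y728 were not made and the Weaver mean holds 4 variants.

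Tests on the counts used edgeR 4.0.16 in R 4.3.3 (filterByExpr, TMM, robust quasi-likelihood test, Benjamini-Hochberg adjustment over all genes), with 1 mean per line. Each state left 16 residual degrees of freedom and the fit of both states 32, on 15830 genes in mESC, 17030 in ATRA and 17683 across states. In all, 22 comparisons were planned and 4 were added after the data were seen. The script was tested on simulated data. Alternatives were DESeq2 1.42.0, no filter, a replicate block, a lowess correction of each library's GC trend, each library left out in turn, and, added after the data were seen, A677T replicate 3 in mESC and K634E replicate 3 in ATRA left out together.

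The members and lists were chosen with earlier results of these data known. Levels in every group were looked up for the C-type genes, the 5 most abundant genes of each cluster and Pcdhga8. In each comparison, up to 5 genes per direction were named by size of change among those called with a mean of at least 1 CPM and no overlap between groups (for a mean of variants, the same sign in every variant), and other called genes were named after their values were seen. Replicate numbers were taken to pair the samples where every same-numbered pair of libraries deviated together at a correlation over 0.1. Only R679C against WT after ATRA met this (0.188 to 0.312), and the block left its 3 calls at 3. After ATRA the correlations against WT were also above 0 in A677T (0.014 to 0.189), K634E (0.055 to 0.283), K563E (0.039 to 0.199) and A733T (0.068 to 0.151). In WT and each variant line, ATRA replicate 3 had the lowest GC correlation and the highest mitochondrial share of its line. That was not so in parental or het. Whether replicates were separate cultures is not stated in the labels, so p-values reflect only how far these libraries spread, which may be technical.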

Additional observations from a re-analysis of the deposited data

How the results depend on the processing

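Of 79 calls of single genes in single comparisons, 31 kept their call in every alternative run and none changed direction. Shares of all genes called are not given here for the runs with no filter on low counts. With no filter on low counts, the number of clustered protocadherin genes called became 26 (from 17) for ATRA against mESC in the Weaver mean, 5 (from 3) in het, 8 (from 5) for A733T against the Weaver mean after ATRA, 1 (from 3) for A677T against the other Weaver variants in mESC, 2 (from 1) for the Weaver mean against WT in mESC, 1 (from 2) for WT against het after ATRA, and 0 for R679C (from 3), K634E (from 1) and K563E (from 1) against WT after ATRA. With the GC correction, it became 10 (from 5) for ATRA against mESC in WT, 7 (from 4) in A733T, 2 (from 1) for K634E against WT after ATRA, 2 (from 1) for A733T against WT in mESC and 0 (from 1) for the Weaver mean against WT in mESC. With the GC correction and the replicate block together, these were 8 in WT, 2, 2 and 0, and A733T against the Weaver mean after ATRA had 8 (from 5). The replicate block alone moved no count by over 1.5 times. Every same-numbered pair correlated over 0.1 only in R679C against WT after ATRA, though such pairs were above 0 in the other variants against WT after ATRA. DESeq2 gave 0 (from 1) for K563E and 1 (from 3) for the Weaver mean, both against WT after ATRA. Without A677T replicate 3 in mESC and K634E replicate 3 in ATRA, K634E against WT after ATRA had 0 and the Weaver mean against WT in mESC 2. In that run ATRA against mESC in the Weaver mean had 16 higher and 1 lower (from 17 and 0). The planned comparisons of Y728 were not run.

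With each library left out in turn, the counts in mESC ranged from 2 to 7 for A677T, 0 to 1 for K563E and A733T and 0 to 2 for the Weaver mean, all against WT, 0 to 1 for WT against het, 0 to 3 for A677T against the other Weaver variants and 4 to 7 for A733T against the Weaver mean. After ATRA they ranged from 1 to 5 for A677T, 0 to 3 for R679C and the Weaver mean, and 0 to 1 for K634E, K563E and A733T, all against WT, 1 to 2 for WT against het, 2 to 6 for A677T against the other Weaver variants and 2 to 6 for A733T against the Weaver mean. For ATRA against mESC they were 4 to 7 in parental, 3 to 4 in het, 3 to 5 in WT, 3 to 5 in A733T and 15 to 17 in the Weaver mean. Depth limits these results, since 39 of the 57 genes in mESC and 36 after ATRA had too few reads to be tested.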
